A study of Homo sapiens with 4 samples.

Results

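A group of very large proteins that tie the cytoskeleton together was followed through ribosome profiling of HEK293T cells treated with the aminoglycoside G418. The 9 genes were 2 spectrins (SPTAN1, SPTBN1), 3 plakins (PLEC, MACF1, DST), a filamin (FLNA), a talin (TLN1) and 2 nonmuscle myosin heavy chains (MYH9, MYH10). They were chosen by name, out of 9271 transcripts listed in the 4 tables together, because SPTBN1 and PLEC had fewer coding sequence (CDS) reads in G418. All 9 were present in every table. Since the choice rests on the G418 contrast itself, the changes of these genes are given as values with standard errors and no p-value.

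HEK293T is a human embryonic kidney line that carries the simian virus large T antigen. The libraries were 2 replicates (A and B) of untreated cells, with G418 at 0 µg/mL, and 2 of cells kept in 500 µg/mL G418 for 24 hr. G418 binds the decoding center of the ribosome and lets it misread codons, stop codons included. In ribosome profiling, the stretches of mRNA covered by ribosomes (RPFs) are sequenced, so a CDS read count reflects both how much mRNA there is and how densely it is translated, and these cannot be told apart here. Recovered reads on mRNAs ranged from 2440204 to 6082600 per library, and untreated B was the shallowest. Nothing in the labels says how the replicate cultures were separated, so standard errors hold for these libraries only. They come from a fit (edgeR) that draws the variability of a gene toward that of all transcripts. They are therefore not the spread of a gene's own libraries. Of 7 genes known from this line, vimentin had 533 to 658 RPKM in its CDS, the neurofilament genes NEFL and NEFM 30.5 to 54.2, KRT18 26.7 to 29.4, INA 10.6 to 19.8 and KRT8 1.45 to 2.13, and PAX2 was listed only in the G418 tables. Of 9 genes of other cell types, only HBA1 and COL1A1 were listed, at 2.26 to 5.54 RPKM, which is above KRT8.

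Spectrins form long flexible tetramers of alpha and beta chains that line the plasma membrane and hold actin to it. Plakins are linkers that join intermediate filaments, actin and microtubules to each other and to junctions. Filamin cross-links actin into networks, talin couples integrins to actin, and nonmuscle myosin II pulls on actin to generate tension.

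Readthrough of a stop codon depends on the stop codon and the bases around it, so the normal termination codon (NTC) of each gene is shown with 15 nt before it and 12 nt after it. Capitals mark the stop codon and the nucleotide after it (+4). The sequences are from GENCODE version 44, the CDS length and stop codon of all 9 transcripts matched the deposited ones, and PLEC is named only.
SPTAN1: ucgcuuuucgugaacUGAGccacucccugg
SPTBN1: uuuggcaaaaagaaaUGAAcuccuuuccuu
MACF1: ccaggucccaagcgaUAACacugucuaagc
DST: aaguccucaaagagaUAGUgcaauugguuc
FLNA: cgcguuguggugcccUGAGucuggggcccg
TLN1: cuucgagaugagcacUAAAgaagccucuuc
MYH9: gccaaaccugccgaaUAAGccucuucuccu
MYH10: ccaccccagucagagUAAAguugcaggaag

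UGA ended 4 of the 9 coding sequences (SPTAN1, SPTBN1, PLEC, FLNA), UAA ended 4 (MACF1, TLN1, MYH9, MYH10) and UAG ended DST. No gene had a C after its stop codon except MACF1. In hg38, SPTBN1 lies at chr2:54456327-54671446 on the plus strand with 36 exons, and SPTAN1 at chr9:128552587-128633662 on the plus strand with 57. MACF1 (chr1:39081417-39486987, plus) has 94 exons and DST (chr6:56457989-56851916, minus) 95. FLNA (chrX:154348531-154374634), TLN1 (chr9:35696948-35732195), MYH9 (chr22:36281280-36387967) and MYH10 (chr17:8474212-8630761) are all on the minus strand. In each of the 9 transcripts the stop codon was in the last exon.

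The proteins encoded by these transcripts run from 1960 amino acids for MYH9 to 5537 for DST, against a median of 450 over the matched transcripts. Their composition varied. Glutamate made up 10.3 to 14.2% of residues in the spectrins, plakins and myosins, at or above the 88.9 percentile of all matched transcripts, and 7.16% in TLN1, the 53.7 percentile. FLNA had 6.04% glutamate, the 33.2 percentile, and its glycine plus aspartate share of 17.0% was at the 96.7 percentile. GC content also spread widely, from 42.7% in the CDS of DST to 67.0% in that of PLEC.

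In untreated cells the densest coding sequences were those of the myosins. CDS density is given as the authors' RPKM, reads scaled to CDS length and library size, which allows genes of different length to be compared. MYH9 had 75.7 and 73.6 RPKM in untreated A and B, and MYH10 had 72.3 and 59.5. FLNA followed with 47.5 and 51.2, TLN1 with 34.3 and 37.1, SPTAN1 with 32.9 and 28.9 and SPTBN1 with 19 and 18.5. The 3 plakins were far lower. PLEC had 4.21 and 5.06 RPKM, MACF1 4.57 and 4.11, and DST 3.48 and 3.10. Neighbours in this order had separate ranges in untreated cells except PLEC and MACF1, whose libraries overlapped.

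In G418 each of the 9 genes, chosen on this contrast, had a lower CDS density in both libraries than in either untreated library, except MYH10. The share of all transcripts with such a separation was not computed on the RPKM scale. With the TMM scaling used below it was 24.8%, so little can be read from the separation itself. Myosin heavy chain MYH10 had 63.7 and 56.7 RPKM in G418, on either side of its untreated B value. MYH9 was in the same range, with 62.3 and 58.1. FLNA had 38.9 and 36.4, TLN1 30 and 29.0, and SPTAN1 23.4 and 20.5. SPTBN1 had 11.3 and 9.51. PLEC had 2.82 and 2.43, MACF1 3.12 and 2.71, and DST 2.73 and 2.48. In G418 the libraries of MYH10 and MYH9 overlapped, as did those of MACF1 and PLEC, and of PLEC and DST, so that the order among the plakins was not resolved.

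**Figure D1:**
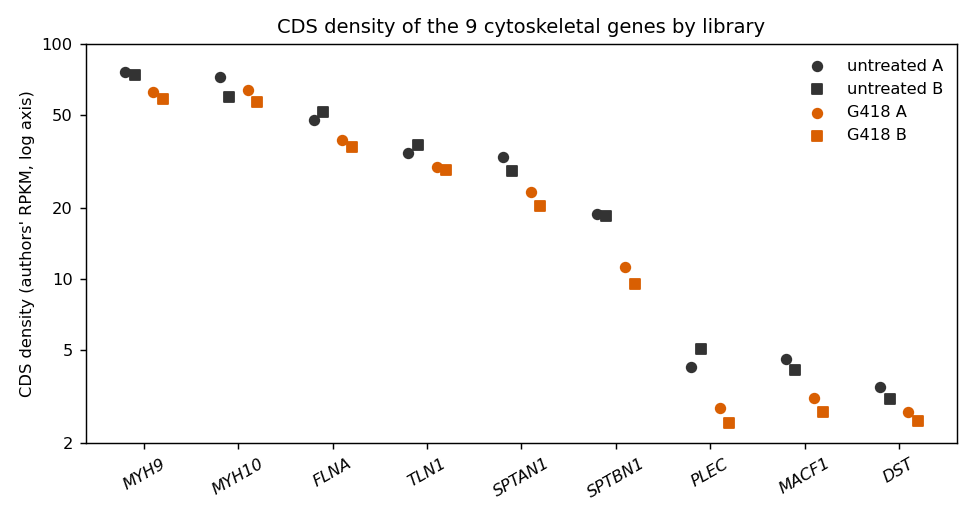
CDS density of the 9 genes (authors' RPKM, log axis) in the 2 untreated (black) and 2 G418 (orange) libraries, with circles for replicate A and squares for B. The G418 points of SPTBN1 sit at 9.51 and 11.3 against 18.5 and 19 in untreated cells, while those of MYH10 overlap the untreated points.

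The largest differences were in SPTBN1, the beta chain of nonerythroid spectrin, and PLEC, plectin, a linker of intermediate filaments. SPTBN1 had 1197 and 507 deposited CDS counts in untreated A and B and 667 and 515 in G418 A and B. After scaling with TMM factors these are 215, 228, 122 and 111 counts scaled to library size (CPM), a fitted log2 fold change of -0.92 (SE 0.10), or 47.1% lower. PLEC had 94.9 and 124 CPM in untreated cells and 60.5 and 56.3 in G418, a log2 fold change of -0.87 (SE 0.12), or 45.2% lower. Its untreated libraries differed more than those of SPTBN1, and within pairs of the same letter its difference was -0.65 for A and -1.13 for B. Among 8494 transcripts tested, SPTBN1 ranked 8 and PLEC 11 from the lowest log2 fold change. Both genes were picked for this difference, so the ranks describe the choice.

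MACF1, a plakin that joins actin to microtubules, had 119 and 117 CPM in untreated cells and 77.9 and 72.9 in G418, a log2 fold change of -0.65 (SE 0.11). SPTAN1, the alpha chain that pairs with SPTBN1, had 391 and 374 CPM against 266 and 251, a log2 fold change of -0.57 (SE 0.09). The untreated and G418 values of both genes were well apart, and the difference was alike in pairs A and B (-0.61 and -0.68 for MACF1, -0.56 and -0.58 for SPTAN1). FLNA had 605 and 708 CPM against 473 and 476, a log2 fold change of -0.46 (SE 0.09). DST, dystonin, a plakin of hemidesmosomes and of neuronal axons, had 92.7 and 90 CPM against 69.5 and 68.0, a log2 fold change of -0.41 (SE 0.11).

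The smallest differences were in the motor and adhesion proteins. MYH9 had 712 and 753 CPM in untreated cells and 559 and 562 in G418, a log2 fold change of -0.38 (SE 0.08). TLN1 had 419 and 493 CPM against 350 and 364, a log2 fold change of -0.35 (SE 0.09). MYH10 had 685 and 614 CPM against 577 and 554, a log2 fold change of -0.20 (SE 0.09), or 13.2% lower. On the TMM scale the groups did not overlap for any of the 9 genes, in a table where both G418 libraries lay below both untreated ones for 24.8% of all transcripts. With edgeR's quasi-likelihood test 3.21% of all tested transcripts passed an adjusted p-value of 0.05 as lower and 5.31% as higher. Because the 9 genes were chosen on this contrast, no call is quoted for them and nothing is read from their lack of overlap.

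The 9 genes together held 0.321% and 0.338% of CDS reads in untreated A and B and 0.263% and 0.262% in G418 A and B. The median log2 fold change of the 9 was -0.46, beside 0.00 for all transcripts tested. With library totals for scaling the median of all transcripts moved to 0.11 and that of the 9 to -0.36, and each of the 9 stayed below 0. With TMM all 9 were below 0 as well, where 49.6% of all transcripts were.

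All 9 coding sequences are long, so they were set beside other long ones. Of 8494 transcripts tested, 341 had a counted CDS of 5000 nt or more, and these had a median log2 fold change of -0.12, with 272 of the 341 (79.8%) below 0. The shorter groups had medians of 0.00 under 500 nt, 0.06 from 500 to 1000 nt, 0.03 from 1000 to 2000 nt and -0.04 from 2000 to 5000 nt. In the long group 23 transcripts (6.74%) passed as lower with edgeR, against 8.27% under 500 nt, 2.1 to 2.94% in the groups between and 3.21% of all. In the long group 0 passed as higher with edgeR, where 1 was higher at an unadjusted p-value under 0.05. The share higher was 0.727% from 2000 to 5000 nt, 4.99 to 10.4% in the shorter groups and 5.31% of all. For the long group DESeq2 called 15 lower and 0 higher, with 0 higher at an unadjusted p-value under 0.05. The 23 include genes described here, which were chosen on this contrast. The other 332 long transcripts had 15 lower calls and a median of -0.12. Within the long group SPTBN1 ranked 1 and PLEC 2 from the lowest, MACF1 5, SPTAN1 7, FLNA 12, DST 15, MYH9 17, TLN1 26 and MYH10 102. The order of the 9 followed length only in part. DST, with the longest counted CDS (16581 nt), had a smaller difference than SPTBN1, with 7062 nt. PLEC (14022 nt) and MACF1 (16260 nt) had some of the larger differences, and MYH9 (5850 nt) and MYH10 (5898 nt), the shortest, some of the smaller. Whether length plays a part was not tested. Across transcripts, which are not independent replicates and share the same libraries, Spearman's rho between CDS length and log2 fold change was -0.157 (n = 8494), and -0.108 within the long group (n = 341).

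**Figure D2:**
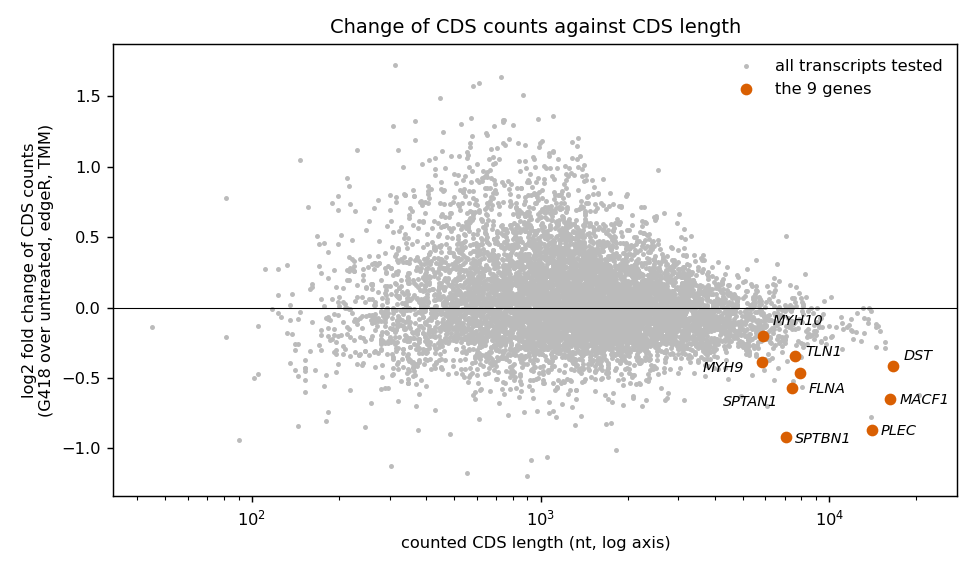
Log2 fold change of CDS counts (G418 over untreated) against counted CDS length in nt (log axis) for the 8494 transcripts tested (grey) and the 9 genes (orange). All 9 lie below 0 among the long coding sequences, from -0.20 for MYH10 to -0.92 for SPTBN1.

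The chains of one complex were compared within each library, since a ratio of densities needs no scaling between libraries. Spectrin alpha and beta chains join in equal numbers. The density of SPTBN1 relative to SPTAN1 was 0.578 (95% exact binomial interval 0.538 to 0.620) in untreated A and 0.639 (0.571 to 0.714) in untreated B. It was 0.482 (0.439 to 0.529) in G418 A and 0.465 (0.418 to 0.516) in G418 B. This ratio was lower in both G418 libraries than in both untreated ones, with a mean of 0.474 ± 0.0122 (SD, n = 2) against 0.608 ± 0.0432 (SD, n = 2). An exact permutation test of 2 libraries against 2 cannot go below p = 0.333, and none was run on a gene chosen for this contrast.

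For the myosins the ratio was also lower in both G418 libraries, but the untreated libraries differed from each other by more than the group means did. MYH9 relative to MYH10 was 1.05 (1 to 1.10) in untreated A and 1.24 (1.15 to 1.33) in untreated B, with separate intervals. In G418 it was 0.977 (0.930 to 1.03) and 1.02 (0.968 to 1.08). The 2 giant plakins MACF1 and DST had a density ratio of 1.31 and 1.33 in untreated cells and 1.14 and 1.09 in G418, with overlapping intervals in all 4 libraries. PLEC relative to MACF1 was 0.922 and 1.23 in untreated cells and 0.901 and 0.895 in G418, so that untreated B was the highest, with an interval (1.04 to 1.46) that met those of the others at its lower end. FLNA relative to TLN1 was 1.39 and 1.38 against 1.30 and 1.26. In each of the 5 pairs the gene with the lower log2 fold change was written first. The shared fall of the 5 ratios in G418 follows from that order and is no separate result.

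**Figure D3:**
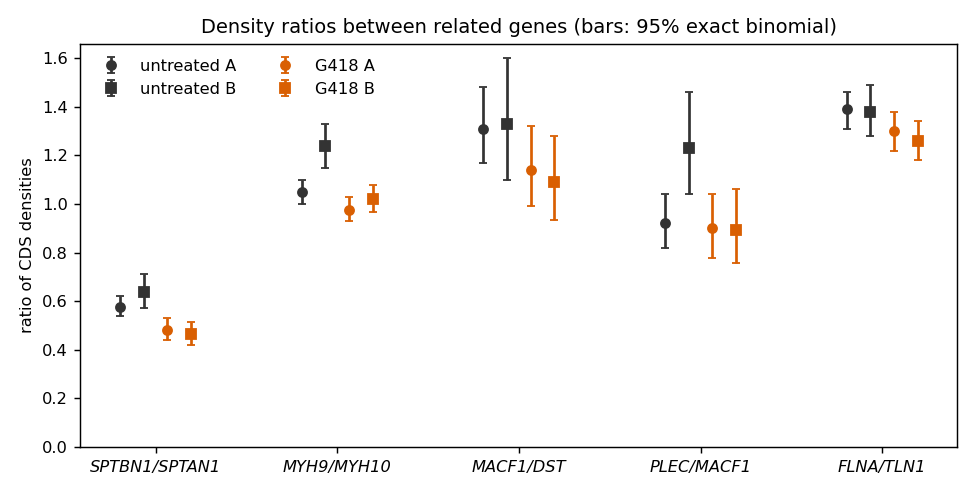
Ratio of CDS densities for 5 pairs of genes in each library, untreated in black and G418 in orange, with 95% exact binomial intervals that cover counting error only. The SPTBN1/SPTAN1 ratio is 0.578 and 0.639 in untreated cells and 0.482 and 0.465 in G418, and the MYH9/MYH10 ratio differs between the untreated libraries.

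The partners of these proteins, taken from 8 lists of cytoskeletal and other giant proteins, had list medians from -0.14 to 0.08. Of the spectrin and ankyrin skeleton (ankyrins, adducins, band 4.1 proteins, tropomodulins), 0 of 11 tested passed with edgeR in either direction, with 1 lower and 0 higher at an unadjusted p-value under 0.05 and 0 with DESeq2, and the median was 0.00. With library totals 1 was called higher. Of the list of other plakins and intermediate filament proteins, the 9 tested were all intermediate filament proteins and none was a plakin. Their median was -0.11, and 1 fell. That was VIM, vimentin, with 1400 and 1570 CPM in untreated cells and 1170 and 1210 in G418, a log2 fold change of -0.32 (SE 0.08, edgeR adjusted p = 0.009), a call that was lost with library totals, at -0.22. Of 15 actin crosslinkers 1 fell, and the median was -0.13. That gene, FLNC, the muscle filamin, had 64.8 and 83.2 CPM against 48.4 and 48.8, a log2 fold change of -0.57 (SE 0.13, edgeR adjusted p = 0.0055).

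Integrin adhesion proteins, which act with talin, had a median of 0.08. Of 21 tested, 0 passed with edgeR in either direction, with 4 higher and 0 lower at an unadjusted p-value under 0.05, and DESeq2 called 0. The list was sensitive to the setting, with 4 called higher with library totals, 4 without untreated replicate A and 4 without untreated replicate B. Nonmuscle myosin light chains, regulators, other myosins and actin had a median of -0.09 over 19, and 3 fell. MYL6, the essential light chain of myosin II, had 750 and 767 CPM against 580 and 551, a log2 fold change of -0.42 (SE 0.08, edgeR adjusted p = 0.001). ACTG1, gamma actin, had 4440 and 5170 CPM against 3780 and 3790, a log2 fold change of -0.34 (SE 0.08, edgeR adjusted p = 0.0042), and reads of ACTG1 and its near-identical copy ACTB, the other gene that fell, can be split between them by the single alignment kept per read.

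Of 13 microtubule partners 1 fell, and the median was -0.08. That gene was DYNC1H1, the heavy chain of cytoplasmic dynein, the motor that walks toward microtubule minus ends. It had 424 and 375 CPM in untreated cells and 234 and 233 in G418, a log2 fold change of -0.78 (SE 0.09, edgeR adjusted p = 3e-06). The list of calpains, a family that includes proteases of spectrin and talin, had 4 genes tested. These were CAPN1, CAPN7, CAPN15 and the small subunit CAPNS1, without the inhibitor calpastatin. They had 0 of 4 past the threshold with edgeR, 0 at an unadjusted p-value under 0.05 and 0 with DESeq2. Of 31 other giant proteins 3 fell and the median was -0.14, with FASN, fatty acid synthase, at -0.52 (SE 0.09, edgeR adjusted p = 0.00022) and CAD, which starts pyrimidine synthesis, at -0.43 (SE 0.09, edgeR adjusted p = 0.0027). With library totals, medians of the lists other than the 9 genes moved to between -0.03 and 0.18. Without G418 replicate A the calls of VIM, FLNC, MYL6, ACTG1, FASN and CAD were lost, and without G418 replicate B those of the same genes other than FASN, while DYNC1H1 passed in each of 10 alternatives.

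**Figure D4:**
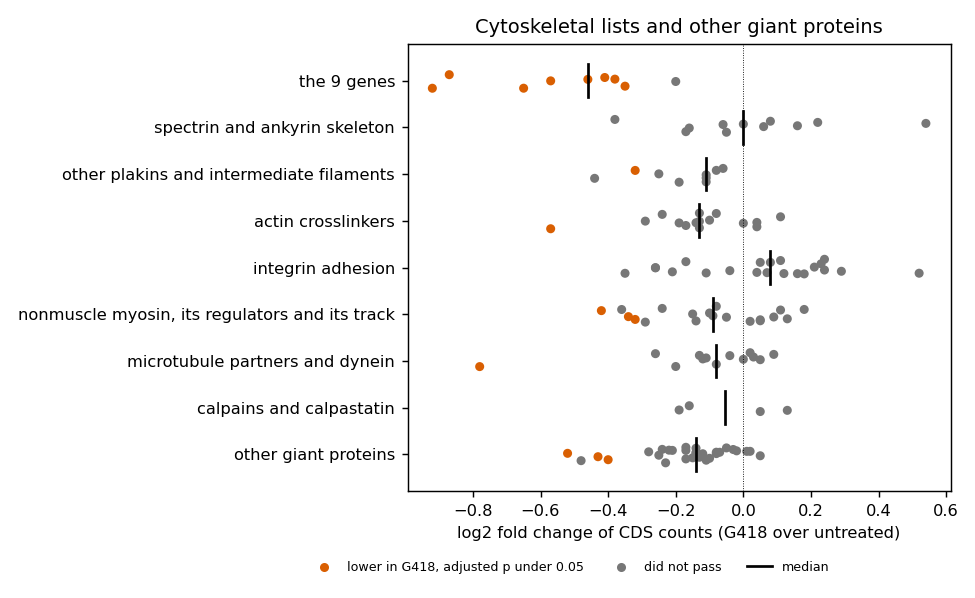
Log2 fold change of CDS counts (G418 over untreated) for the 9 genes and 8 lists, 1 point per transcript, with transcripts past an adjusted p-value of 0.05 in orange, the others in grey and the median as a bar. The median of the 9 genes is -0.46 and that of the integrin adhesion list 0.08. The 9 genes were chosen on this contrast, so nothing is read from the colours of their points.

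The transcripts whose pattern over the 4 libraries was most like that of SPTBN1, by the root mean square difference of mean-centred log2 CPM among 2610 transcripts at least as abundant as PLEC, were NDUFA1 (0.096), SEC61B (0.129) and DYNC1H1 (0.130). For PLEC they were SEC61B (0.163), NDUFA1 (0.174) and PSMB3 (0.178). NDUFA1 and SEC61B have counted coding sequences of 180 and 258 nt. With 4 libraries this measure is a description.

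Readthrough of these genes was measured on few reads. The ribosome readthrough score (RRTS) compares RPF density from the NTC to the next stop codon in the same frame (3′TC) with the density in the CDS. The counted stretch before the 3′TC was 15 nt for MYH9, 36 nt for MYH10, 102 to 111 nt for the spectrins and plakins, 237 nt for FLNA and 387 nt for TLN1. Over the 9 genes there were 4 and 2 such reads in untreated A and B and 24 and 23 in G418 A and B. FLNA, which ends in UGAG, had 1 and 0 reads in untreated cells and 11 and 3 in G418. TLN1, which ends in UAAA, had 0 and 0 in untreated cells and 7 and 5 in G418. SPTAN1 had 1 and 0 against 0 and 6, so its G418 reads came from a single library. SPTBN1 had 1 and 1 against 1 and 4.

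The other 5 genes had between 0 and 2 reads in any library. For PLEC, MACF1 and DST the depth did not allow a comparison. They would have had only 4.28 to 4.93 reads over both G418 libraries even if the stretch were as densely occupied as the CDS. On that basis MYH9 would have had 14.5 reads in G418 and MYH10 34.9. MYH9 had 0 and 0 reads in untreated cells and 0 and 2 in G418, and MYH10 0 and 0 against 2 and 2. With both replicates summed, RRTS of FLNA in G418 was 0.0976 (95% exact Poisson interval 0.0533 to 0.164) against 0.00677 (0.000171 to 0.0377) in untreated cells. That of TLN1 was 0.0655 (0.0338 to 0.114) in G418, and its 0 reads in untreated cells allow an RRTS of up to 0.0172 at the level of 3 reads, or 0.0211 as the upper end of the exact Poisson interval. FLNA and TLN1 were the only genes of the 9 with enough reads to enter the edgeR fit of RRTS, in which 82.6% of 2827 transcripts passed as higher in G418 and 0.0707% as lower.

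Summed over the 9 genes, aggregate RRTS (reads observed over reads expected at CDS density) was 1.27% and 1.42% in untreated A and B and 9.96% and 11.2% in G418 A and B. Over 6509 transcripts that met the read minimum in each condition it was 1.99% and 1.81%, and 15.8% and 15.1%. With replicates summed, the 4 genes with UGA reached 12.7% (95% exact Poisson interval 8.29 to 18.6) in G418, where all transcripts with UGA reached 22% (21.9 to 22.2). The 4 genes with UAA reached 7.99% (4.81 to 12.5), where all with UAA reached 8.94% (8.84 to 9.04). The UAA interval of the genes thus included the value of all UAA transcripts. The UGA interval of the genes lay below the value of all UGA transcripts. FLNA held 14 of the 26 UGA reads, and without it the value was 19.6% (10.1 to 34.2), an interval that includes 22%. That value came mostly from 1 library, with 2 reads (5.84%) in G418 A and 10 reads (36.9%) in G418 B. All 4 genes with UGA have a purine at +4, and all transcripts with UGA and a purine at +4 reached 19.2% (19 to 19.4). The interval of the 4 genes (8.29 to 18.6) lay below that value too. FLNA and TLN1 supply most of the expected reads (143 and 183 of 447 in G418), and without TLN1 the aggregate of the genes in G418 was 13.4% rather than 10.6%.

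**Figure D5:**
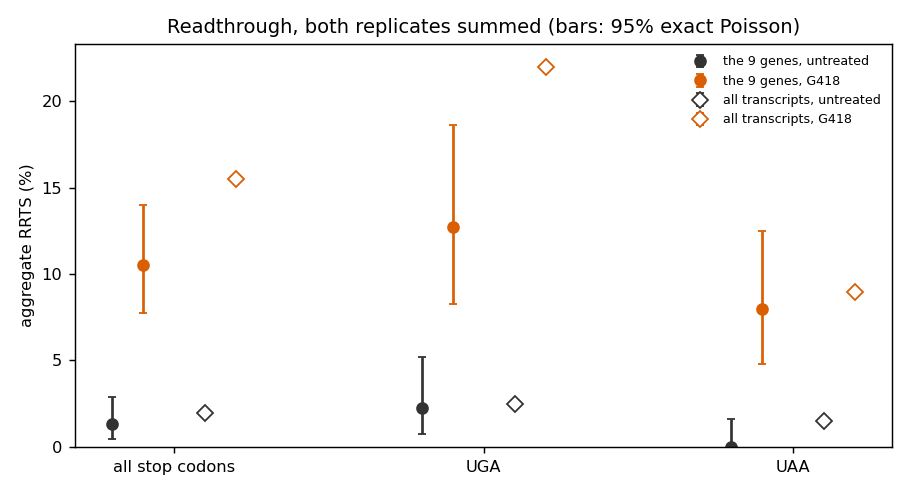
Aggregate RRTS in percent, replicates summed, for the 9 genes (filled circles) and all transcripts with enough reads (open diamonds), untreated in black and G418 in orange, with 95% exact Poisson intervals for counting error. The 9 genes go from 1.32% to 10.5%, and their UGA value is 12.7%, or 19.6% without FLNA, beside 22% for all UGA transcripts. Without FLNA 10 of the 12 UGA reads come from G418 B.

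Beyond the first 3′TC the 9 genes had 10 and 2 reads in the rest of the 3′UTR in untreated A and B and 17 and 12 in G418. 5′UTR reads were rare, with 3.21 to 6.09 per 1000 CDS reads over the 9 genes against 47.4 to 55.8 over all transcripts, a ratio that falls as the CDS lengthens. None was found on PLEC, MACF1 or DST in any library. MYH9 had the most, with 49 and 11 in untreated A and B and 33 and 30 in G418, or 12.4, 6.57, 10.8 and 11.5 per 1000 CDS reads, and the groups overlapped.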

How the data were processed

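Ribosome profiling libraries of HEK293T cells (2 untreated, 2 G418-treated) were analysed. The authors collapsed duplicate reads by sequence and molecular identifier, removed noncoding RNA, aligned reads to hg38 with STAR (CASAVA 1.8 is also named in the submitters' processing notes), kept a single alignment per read, and used 1 transcript per gene. The deposited counts are whole reads per region. The authors' RPM values are the same reads scaled to the mapped reads of each library, and the deposited RPKM divide these by region length. The deposited ratio values, RRTS, divide 3′UTR density by CDS density. Other deposited values treated as a score were not used.

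Whole reads were recovered from RPM (100% of values whole within 0.001 reads), and the deposited counts equalled them or 1 less. Readthrough and density ratios used recovered reads. CDS counts of transcripts in all 4 tables (8568, of which 74 were too low) were tested with edgeR's quasi-likelihood test (TMM, treatment only). RRTS was tested likewise with log(CDS reads + 0.5) as offset, at least 10 reads before the 3′TC and a minimum of mRNA reads per condition. P-values were Benjamini-Hochberg adjusted over all transcripts tested, with a threshold of 0.05. On simulated data the CDS test recovered 91.9% of 2-fold changes at 5.21% false calls among 8474 genes, and the RRTS test 100% of 8-fold increases and 53% of 8-fold decreases at 1.29% among 2827. Intervals and the limit of 3 reads cover counting error only. Reads on mRNAs were 2440204 to 6082600 per library.

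The members and lists were chosen with earlier results of these data known. Genes named beside the 9 are, per list, up to 2 that rose and 2 that fell most among those past the threshold and changed alike in both lettered pairs, and the 3 most like SPTBN1 and PLEC. ACTB was named after its values were seen. 1 gene of the actin crosslinker list is not reported here. Alternatives were DESeq2, other scaling, no filter, recovered reads, the replicate letter as a block, other minimum reads, the whole 3′UTR and leaving out each library. Python 3.11.15 was used with scipy 1.17.1, pandas 2.3.3, numpy 2.4.6 and matplotlib 3.10.9, and edgeR 4.0.16 and DESeq2 1.42.0 ran under R 4.3.3.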

Additional observations from a re-analysis of the deposited data

How the results depend on the processing

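The median log2 fold change of the 9 genes lay between -0.53 and -0.36 under each of 10 alternatives. Counts over all transcripts moved more. With library totals 120 transcripts were lower and 887 higher in CDS counts, and with DESeq2 140 and 113, against 273 and 451. Leaving out 1 library gave 15 to 1092 lower and 57 to 990 higher, and the lone library of a group was then assumed to vary like the others. Higher RRTS was called for 1536 transcripts with a minimum of 20 reads and 1408 with DESeq2, against 2336, and for 1496 to 2265 without 1 library. The higher minimum tests fewer transcripts, and for the other settings the cause was not tested. Over the whole 3′UTR the aggregate RRTS of the 9 genes was 1.81% in G418 and 0.391% in untreated cells. In G418 it was 13.4% without TLN1, against 10.6%, and in untreated cells, against 1.35%, it was 0.881% without SPTBN1, 1.01% without PLEC, 1.2% without DST, 1.77% without FLNA and 2.2% without TLN1. Leaving out FLNA, an alternative chosen after seeing the data, moved the summed value of the genes with UGA from 12.7% to 19.6%. With the replicate block 452 transcripts were lower and 618 higher, and 1852 had higher RRTS. The letters are shared numbers only, with a correlation of deviations of 0.137 over 8494 transcripts and 2 pairs. Depth limits the readthrough values, with at most 14 reads per gene over both G418 libraries.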
